A study of Homo sapiens with 4 samples.

Results

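The genes of oxidative phosphorylation were followed in OCI-AML3 cells, an established human line of acute myeloid leukemia (AML) that, before editing, carries a heterozygous NPM1 mutation (mtNPM1) together with mutations of DNMT3A and NRAS. Members were the protein-coding genes whose symbol starts with NDUFA, NDUFB, NDUFC, NDUFS, NDUFV, UQCR, COX4 to COX8, ATP5 or MT-, or is SDHA, SDHB, SDHC or SDHD. This took in 111 of the 58037 genes of the count table, of which 98 are encoded in the nucleus and 13 in mitochondrial DNA. RNA was sequenced 3 days after transfection of the line with a control guide (sgNeg, 2 libraries) or with sgNPM1A, a guide against the mutant allele (mtNPM1 KO, 2 libraries). The libraries held 25069484 and 25587774 counts for sgNeg and 28276391 and 28209174 counts for sgNPM1A, so that a floor of 3 counts equals 0.108 to 0.118 CPM, the unit of level used here, in which a count is scaled by the TMM-adjusted size of its library. This floor covers counting error alone. All 4 libraries come from a single line, and the gene counts sum the mutant and wild-type allele.

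Oxidative phosphorylation is run by 5 protein complexes of the inner mitochondrial membrane. Complex I takes electrons from NADH and complex II from succinate, complex III passes them to cytochrome c, and complex IV, cytochrome c oxidase, hands them to oxygen. The proton gradient that results drives complex V, the ATP synthase. Most subunits are made from nuclear genes and imported, while a small core of complexes I, III, IV and V is transcribed inside the organelle from mitochondrial DNA. Complex II is wholly nuclear. Many AML cells are known to lean on this pathway for ATP.

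Following mtNPM1 KO, the nuclear and the mitochondrially encoded members gave different counts of calls. Of the 98 nuclear members 91 passed the filter on low counts and were tested, and 43 of them were higher, by an adjusted p under 0.05 in edgeR's quasi-likelihood test with Benjamini-Hochberg adjustment and a fold change of at least 1.25. By the same rule 10.5% of all 15718 tested genes were higher and 10.3% were lower (11.2% and 11.7% of the protein-coding ones). A single nuclear member, NDUFA8, was lower, and 47 were not called. Of the 13 mitochondrially encoded members, all tested, 0 were called higher and 0 lower, with 0 higher and 1 lower (MT-CYB) at an adjusted p under 0.05 without the fold threshold. With unadjusted p-values and no fold threshold, 0 were past 0.05 as higher and 1 as lower in edgeR and in DESeq2, and 0 and 4 in limma-trend, which called 1 of them (MT-ND6) lower. DESeq2 called 0 mitochondrially encoded members either way, and 41 nuclear members higher, against 8.06% of all tested genes higher and 7.9% lower. The median log2 fold change was 0.32 over the tested nuclear members and -0.04 over the mitochondrially encoded ones, against 0.00 over all tested genes. The difference of the 2 medians was 0.35 on the log2 scale, given as a description with no test of its own.

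Without the fold threshold, 57 nuclear members were higher and 1 was lower at an adjusted p under 0.05 in edgeR, where 12.9% of all tested genes were higher and 13.1% lower. Both sgNPM1A libraries lay above both sgNeg libraries for 73 nuclear members and below them for 4, while 14 overlapped. Over all tested genes the shares were 31.4% above and 31.7% below. The rises were modest in size. The middle 50% of nuclear members lay between 0.17 and 0.43 on the log2 scale, and the median corresponded to a 1.24-fold increase. With 2 libraries per condition the smallest two-sided p of an exact permutation test is 0.333, so each call rests on the variance that edgeR shares between genes, and the p-values measure the spread between these libraries.

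**Figure D1:**
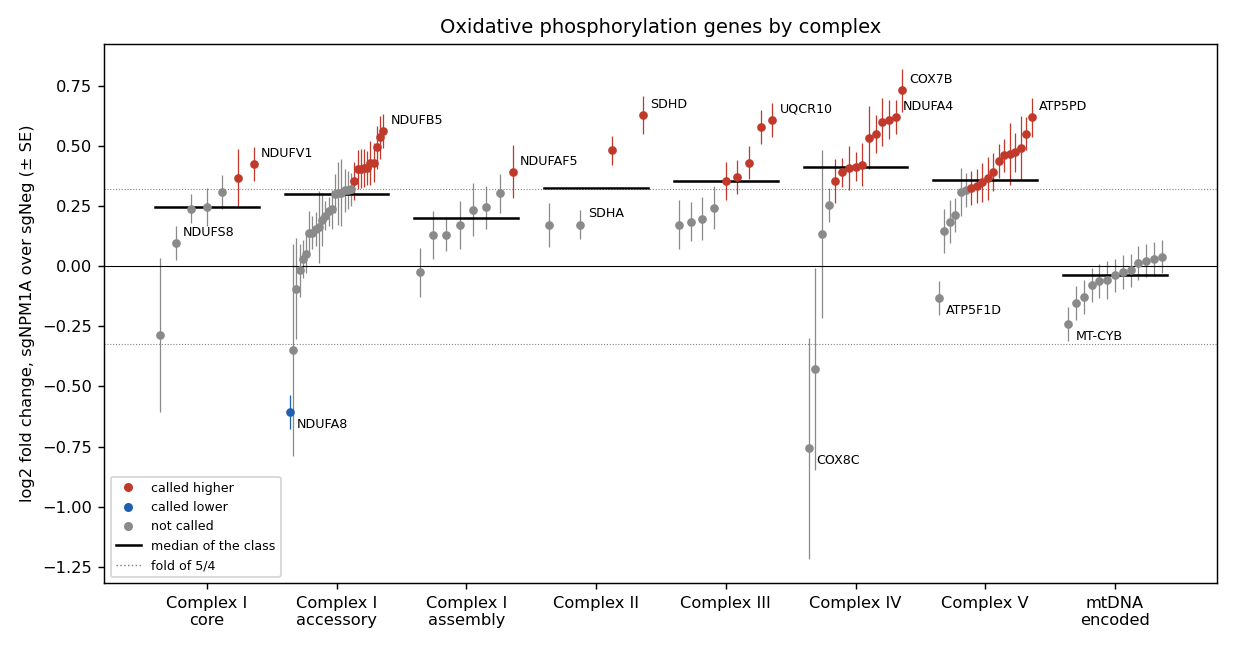
Log2 fold change of each tested oxidative phosphorylation gene, sgNPM1A over sgNeg, with its standard error (2 libraries per condition), grouped by complex and role. Red points were called higher, the blue point lower and grey points neither, black bars are medians, and dotted lines mark a fold of 1.25. Most nuclear genes sit above 0, with complex IV at a median of 0.41, and the 13 genes of mitochondrial DNA lie between -0.24 and 0.04.

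NPM1, the gene the guide targets, had 1319 and 1385 CPM in the sgNeg libraries and 1189 and 1132 CPM in the sgNPM1A libraries. Its log2 fold change was -0.22 (SE 0.07, adjusted p = 0.036 in edgeR), below the fold threshold. With limma-trend it was -0.42 (adjusted p = 0.00108), past that threshold, and with the replicate block the adjusted p was 0.156 in edgeR. All 10 myeloid markers that the label of the line implies had counts in every library. Of these 6 were called higher (60%, against 10.5% of all tested genes). ITGAM and MPO were low with sgNeg. ITGAM went from 0.7475 and 0.8108 CPM to 3.516 and 4.358 CPM, and MPO from 2.793 and 3.243 CPM to 10.15 and 10.52 CPM. LYZ, which encodes lysozyme, went from 270.6 and 215.1 CPM to 2643 and 3367 CPM. The summed CPM of the 10 markers went from 2176 and 2177 to 5151 and 5887, and most of that rise was LYZ. All 3 T cell markers were at 0 in every library, as was 1 marker of 3 for B cells, 1 of 4 for erythroid cells and 2 of 4 for epithelial cells or fibroblasts, a list in which COL1A2 was lower (-1.33). The myeloid markers PTPRC, CEBPA, CD33 and CD14 were not called, at log2 fold changes of -0.05, 0.04, 0.06 and 0.34 (adjusted p = 0.0557 for CD14, edgeR). The part of the myeloid markers in the rise of the nuclear members was not tested. In bulk RNA a change in the makeup of the culture and a change of RNA per cell cannot be told apart.

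Within a library the sum of the nuclear members was 10285.7 and 11140.1 CPM with sgNeg and 13510.2 and 13309.9 CPM with sgNPM1A. These sums were 1.04% and 1.13% of all counts in the sgNeg libraries and 1.33% and 1.31% in the sgNPM1A libraries, with no overlap between conditions. The 13 mitochondrially encoded members summed to 66382.4 and 67073.2 CPM with sgNeg and to 64625.8 and 66453.4 CPM with sgNPM1A, which overlap. As shares of all counts, without TMM scaling, they were 6.73% and 6.79% with sgNeg and 6.37% and 6.54% with sgNPM1A, lower in both sgNPM1A libraries and with no overlap. The ratio of mitochondrially encoded to nuclear summed CPM was 6.45 and 6.02 with sgNeg and 4.78 and 4.99 with sgNPM1A. Medians per gene lay further apart than these sums, which add up unequal numbers of genes. In sgNeg libraries the median was 7586 TPM (CPM scaled for transcript length) over the 13 mitochondrially encoded members and 161.9 TPM over the 90 tested nuclear members with an annotated length, and the nuclear gene of highest level, COX4I1, had 1127 TPM.

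**Figure D2:**
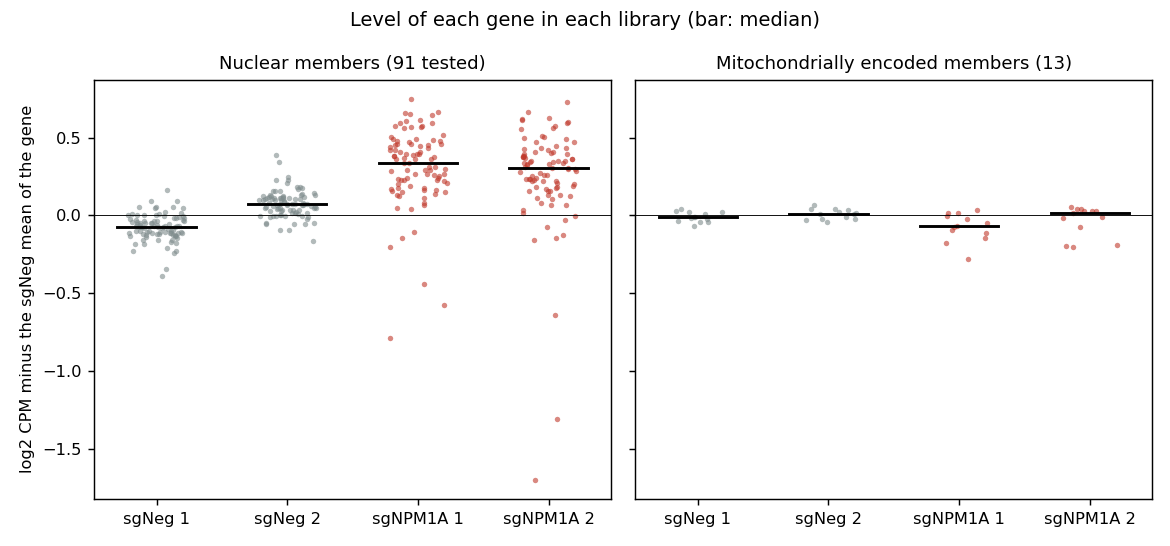
Log2 CPM of each gene in each of the 4 libraries, minus the mean of the 2 sgNeg libraries for that gene, for 91 nuclear and 13 mitochondrially encoded members. Points are genes and bars are medians. The nuclear medians are -0.07 and 0.07 in the sgNeg libraries and 0.34 and 0.30 in the sgNPM1A libraries, and the mitochondrial medians stay between -0.07 and 0.02.

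The 2 sgNeg libraries did not stand at the same level. The median nuclear member lay at -0.07 in sgNeg 1 and at 0.07 in sgNeg 2, relative to their mean. Leaving out sgNeg 1 left 30 nuclear members higher, where 8.88% of all tested genes were higher and 8.58% lower, and leaving out sgNeg 2 gave 54, where the shares were 9.53% and 9.51%. Without sgNPM1A 1 there were 36 (8.57% and 8.17%), and without sgNPM1A 2 there were 43 (7.56% and 7.21%). Scaling by library size only left 36, where 9.12% of all tested genes were higher and 12.4% lower. NDUFA8 was the only nuclear member called lower in each of these fits. Each library's trend on transcript length and GC content over all tested genes was also removed in a separate fit. With this offset 34 nuclear members were higher, 32 of them shared with the 43. The calls of COX4I1, COX6C, COX7A2, ATP5F1B, ATP5IF1, ATP5MG, ATP5MJ, ATP5PB, NDUFA12 and NDUFAB1 were lost at 0.26 to 0.31 on the log2 scale, and that of NDUFS7 at 0.34 (adjusted p = 0.0627, edgeR). With the offset the nuclear median was 0.26, and 11.1% of all tested genes were higher and 10% lower.

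Promoters of nuclear members are shown because the genes moved together and several regulators of respiratory genes bind known core sequences there. Windows of 250 bases before to 50 after the start (RefSeq, GRCh38.p14) were found for 78 of 98 nuclear members, of which 75 were tested. A single window was used per gene. Its end lay at the start of a transcript of the gene for 71 of the 75. The letters searched on both strands were CCGGAAG (the core bound by ETS factors such as GABPA), GCATGCG (NRF1), AAGATGG (YY1) and CCAAT. No member had overlapping matches of different motifs, although GCATGCG matches both strands 1 base apart in palindromes. Of the 75 members 28% held CCGGAAG, 20% GCATGCG, 21.3% AAGATGG and 34.7% CCAAT. Over all 27305 promoters the shares were 10.7%, 4.13%, 6.06% and 35.7%, and over the 10063 of tested protein-coding genes 19.6%, 6.49%, 7.7% and 36.5%. Among the 36 members called higher the shares were 36.1%, 22.2%, 33.3% and 41.7%, and among the 39 not called higher 20.5%, 17.9%, 10.3% and 28.2%. These are descriptions with no test, and a match is not a site of binding. Capitals mark the matches in the promoters of COX7B (chrX:77899218-77899517, plus strand), the member with the largest rise, SDHD (chr11:112086623-112086922, plus strand), COX5B (chr2:97645812-97646111, plus strand), COX6A1 (chr12:120437863-120438162, plus strand), ATP5PF (chr21:25735005-25735304, minus strand) and NDUFA8 (chr9:122159730-122160029, minus strand), the last for its fall.
COX7B: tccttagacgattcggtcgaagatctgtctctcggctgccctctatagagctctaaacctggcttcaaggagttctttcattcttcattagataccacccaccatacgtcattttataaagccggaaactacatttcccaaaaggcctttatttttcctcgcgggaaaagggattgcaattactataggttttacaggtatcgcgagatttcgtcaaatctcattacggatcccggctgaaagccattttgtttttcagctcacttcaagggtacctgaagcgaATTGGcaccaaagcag
SDHD: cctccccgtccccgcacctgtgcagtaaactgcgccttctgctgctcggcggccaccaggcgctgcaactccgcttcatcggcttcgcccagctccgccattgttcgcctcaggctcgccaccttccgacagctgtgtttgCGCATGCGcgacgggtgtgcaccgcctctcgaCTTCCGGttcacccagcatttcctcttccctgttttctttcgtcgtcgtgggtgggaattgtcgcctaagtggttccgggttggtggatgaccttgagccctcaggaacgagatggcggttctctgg
COX5B: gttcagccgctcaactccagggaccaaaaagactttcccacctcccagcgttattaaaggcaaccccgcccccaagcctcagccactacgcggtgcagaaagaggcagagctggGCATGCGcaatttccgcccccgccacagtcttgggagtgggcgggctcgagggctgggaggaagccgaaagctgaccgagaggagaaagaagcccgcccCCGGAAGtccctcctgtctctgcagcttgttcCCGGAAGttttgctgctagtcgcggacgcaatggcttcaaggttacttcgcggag
COX6A1: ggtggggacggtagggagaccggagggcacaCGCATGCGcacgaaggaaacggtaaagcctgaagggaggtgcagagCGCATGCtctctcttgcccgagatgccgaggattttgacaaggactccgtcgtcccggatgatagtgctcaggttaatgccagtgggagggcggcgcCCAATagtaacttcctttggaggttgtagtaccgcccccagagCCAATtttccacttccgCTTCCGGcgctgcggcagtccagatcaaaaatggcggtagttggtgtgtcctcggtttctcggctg
ATP5PF: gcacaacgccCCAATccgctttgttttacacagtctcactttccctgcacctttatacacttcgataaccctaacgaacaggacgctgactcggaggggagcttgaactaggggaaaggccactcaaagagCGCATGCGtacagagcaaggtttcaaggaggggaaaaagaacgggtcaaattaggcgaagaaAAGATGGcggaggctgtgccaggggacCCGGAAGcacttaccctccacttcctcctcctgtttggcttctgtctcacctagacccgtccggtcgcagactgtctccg
NDUFA8: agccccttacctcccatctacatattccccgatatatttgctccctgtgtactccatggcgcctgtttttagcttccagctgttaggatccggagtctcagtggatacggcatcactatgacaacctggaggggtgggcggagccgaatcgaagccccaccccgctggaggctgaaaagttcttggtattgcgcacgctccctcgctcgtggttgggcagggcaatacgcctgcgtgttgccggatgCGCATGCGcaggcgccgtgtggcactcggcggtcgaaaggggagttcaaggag
The COX7B window holds 1 match, of CCAAT, and none of CCGGAAG. SDHD, COX5B, COX6A1 and ATP5PF were picked to show members whose windows hold CCGGAAG or its reverse complement, as 13 of the 36 members called higher do, so nothing follows from their having it. The NDUFA8 window holds GCATGCG and its reverse complement and no match of the other 3. The ATP5PF window lies inside the RefSeq span of ATP5PF itself (25724500 to 25735653), not at its outer end. This window also lies inside the RefSeq span of GABPA (25734972 to 25772460). The log2 fold change of GABPA was 0.09 (SE 0.12, adjusted p = 0.66, edgeR), while ATP5PF rose by 0.46 (SE 0.07, adjusted p = 0.000648).

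Without the length and GC offset, complex IV had the most called genes for its size. Of 15 tested nuclear members 11 were higher, and among the 11 ubiquitous subunits 10 were higher, with a median log2 fold change of 0.42. The remaining ubiquitous gene, COX7A2L, which helps join complexes III and IV into supercomplexes, had a value of 0.26 (adjusted p = 0.0184, edgeR) under the fold threshold. With the offset COX4I1, COX6C and COX7A2 lost their calls. The median of the nuclear complex IV members was then 0.34, against 0.35 for those of complex III. The largest rise of all members was that of COX7B, a small membrane subunit on chromosome X of GRCh38 (77899468 to 77907376). COX7B had 82.85 and 99.93 CPM with sgNeg and 152.9 and 150.5 CPM with sgNPM1A. The conditions did not overlap, and the log2 fold change was 0.73 (SE 0.09, adjusted p = 9.76e-05, edgeR).

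COX5B, a matrix-side subunit that binds zinc (chromosome 2, 97646062 to 97648383), went from 120.2 and 140.1 CPM to 203.5 and 193.5 CPM. The log2 fold change of COX5B was 0.61 (SE 0.08, adjusted p = 0.000216, edgeR). COX8A, among the smallest subunits of the enzyme, had 79.58 and 101.5 CPM with sgNeg and 141.8 and 132.8 CPM with sgNPM1A, and rose by 0.60 on the log2 scale (SE 0.10, adjusted p = 0.0012, edgeR). In COX8A 28.5% of the 50-base words of the transcripts also occur in other genes, so part of its reads could be shared. NDUFA4, first described in complex I and now placed in complex IV, went from 88.87 and 98.11 CPM to 142.9 and 144.4 CPM, a rise of 0.62 on the log2 scale (SE 0.07, adjusted p = 8.36e-05, edgeR).

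COX4I1, which spans the membrane beside the catalytic core, and the matrix-side subunit COX5A also rose. COX4I1 had 409.0 and 490.7 CPM with sgNeg and 589.4 and 559.9 CPM with sgNPM1A (log2 fold change 0.35, SE 0.09, adjusted p = 0.0114, edgeR). COX5A went from 146.5 and 154.2 CPM to 201.3 and 199.2 CPM (log2 fold change 0.41, SE 0.06, adjusted p = 0.00074, edgeR). The call of COX4I1 was lost without sgNeg 1, at a log2 fold change of 0.23, without sgNPM1A 1, at 0.32 (adjusted p = 0.0632, edgeR), and with the length and GC offset, at 0.28. Library sgNeg 1 also decided the calls of COX6A1 (0.53 with all libraries, 0.32 without sgNeg 1) and COX6B1 (0.42 and 0.30), while COX7A2 rose by 0.39 (adjusted p = 0.00107, edgeR). The small subunits COX7C and COX6C rose by 0.55 and 0.41. With the offset COX7A2 stood at 0.30 and COX6C at 0.31, under the fold threshold.

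The isoforms that replace these subunits in muscle, lung or testis were at low counts or at 0. COX4I2, COX6A2 and COX7B2 had 0 counts in all 4 libraries, which allows at most 0.118 CPM in any of them. COX7A1, the form of heart and skeletal muscle, had 7 to 9 counts per library and was not tested. COX6B2, a testis form, had 14, 23, 23 and 21 counts, COX8C had 19, 17, 17 and 6, and NDUFA4L2, a hypoxia-linked paralog, had 21, 30, 30 and 11 in the order sgNeg 1, sgNeg 2, sgNPM1A 1 and sgNPM1A 2. None of these 3 passed the test, and their standard errors lay between 0.35 and 0.46 on the log2 scale.

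For complex V, 12 of 18 tested nuclear members were higher and 0 lower, with a median of 0.36. The peripheral stalk, which holds the F1 head still while the rotor turns, had all 4 of its genes higher. ATP5PD (chromosome 17, 75038863 to 75046969) went from 83.05 and 95.64 CPM to 139.5 and 134.8 CPM, a rise of 0.62 on the log2 scale (SE 0.08, adjusted p = 0.000175, edgeR). The stalk gene ATP5PO had a value of 0.49, ATP5PF 0.46 and ATP5PB 0.33.

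Of the 3 genes of the rotating c ring, through which protons pass, 2 were called higher. ATP5MC1, ATP5MC2 and ATP5MC3 encode the same mature c subunit with different import sequences. ATP5MC3 went from 191.2 and 188.1 CPM to 265.6 and 290.1 CPM (log2 fold change 0.55, SE 0.07, adjusted p = 0.000137, edgeR) and ATP5MC1 from 92.21 and 103.4 CPM to 133.5 and 131.6 CPM (0.44, SE 0.07, adjusted p = 0.00125). ATP5MC2, at the highest CPM of the 3, had 327.8 and 390.0 CPM with sgNeg and 417.0 and 377.4 CPM with sgNPM1A, which overlap (0.15, SE 0.09, adjusted p = 0.255, edgeR). The difference between these genes was not tested.

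In the catalytic F1 head 1 of 5 genes was called. ATP5F1B, the beta subunit that makes ATP, had 970.3 and 900.0 CPM with sgNeg and 1126 and 1215 CPM with sgNPM1A (log2 fold change 0.32, SE 0.07, adjusted p = 0.00739, edgeR). The alpha subunit ATP5F1A had the same value to 2 decimals (0.32, SE 0.07, adjusted p = 0.00534) and was just short of the fold threshold, so these 2 genes mark the inside and the outside of the rule. ATP5F1B was not called without sgNPM1A 2 or without sgNeg 2, at 0.27 in both cases, or with the offset, at 0.28, and ATP5F1A was called without sgNPM1A 1 (0.35) or sgNeg 2 (0.34). ATP5F1D, the delta subunit of the central stalk, had 242.6 and 261.1 CPM with sgNeg and 234.3 and 225.2 CPM with sgNPM1A, at a value of -0.13 (adjusted p = 0.177, edgeR). ATP5IF1, the inhibitor that stops the enzyme from running backwards, rose by 0.39 (SE 0.08, adjusted p = 0.00383), and its value was 0.29 without sgNeg 1 and 0.31 with the offset, both under the fold threshold.

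In the membrane part 4 of 5 tested genes were higher (ATP5MK, ATP5ME, ATP5MG and ATP5MJ, from 0.35 to 0.47), and ATP5MF stood at 0.31. The read-through gene ATP5MF-PTCD1 and the retrogene ATP5MGL had 0 to 6 counts and were not tested.

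Complex III, which oxidizes coenzyme Q, had 5 of 9 nuclear members higher, and both sgNPM1A libraries lay above both sgNeg libraries for all 9. UQCRC2, a core protein of the matrix arm on chromosome 16 (21953361 to 21983660), went from 89.97 and 86.99 CPM to 130.6 and 133.7 CPM (log2 fold change 0.58, SE 0.07, adjusted p = 8.14e-05, edgeR). UQCR10, a small subunit next to cytochrome c1, went from 94.81 and 105.3 CPM to 151.0 and 153.8 CPM (0.61, SE 0.07, adjusted p = 0.000103). The Rieske iron-sulfur protein UQCRFS1 rose by 0.43, the core protein UQCRC1 by 0.37 and UQCRB by 0.35 on the log2 scale, while UQCRQ, UQCR11, UQCRH and its near copy UQCRHL were not called, at values from 0.17 to 0.24.

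Complex II, succinate dehydrogenase, has 4 subunits. SDHD, a membrane anchor on chromosome 11 (112086873 to 112095794), had 50.12 and 55.25 CPM with sgNeg and 79.29 and 83.48 CPM with sgNPM1A (log2 fold change 0.63, SE 0.08, adjusted p = 0.000146, edgeR). SDHB, the iron-sulfur subunit, went from 121.6 and 122.6 CPM to 168.0 and 172.8 CPM (0.48, SE 0.06, adjusted p = 0.000234). The flavoprotein SDHA and the second anchor SDHC were not called. SDHA had 459.5 and 457.6 CPM with sgNeg and 513.4 and 519.9 CPM with sgNPM1A (0.17, SE 0.06, adjusted p = 0.0707), and 24.4% of its 50-base words recur in other genes, chiefly the pseudogene SDHAP4.

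Complex I had the most members and the smallest share of calls among the 5 complexes, with 13 higher and 1 lower of 45 tested and a median of 0.24. Of its 7 nuclear core subunits, which carry the flavin and the iron-sulfur clusters, 2 were higher. NDUFV1, which binds NADH, went from 253.7 and 267.2 CPM to 358.0 and 341.5 CPM (log2 fold change 0.43, SE 0.07, adjusted p = 0.0007, edgeR), and NDUFS7, an iron-sulfur subunit of about 10 CPM, rose by 0.37 (adjusted p = 0.0392). DESeq2 did not call NDUFS7 (adjusted p = 0.13), nor did edgeR with the length and GC offset (adjusted p = 0.0627). NDUFS1 had 115.4 and 107.3 CPM with sgNeg and 134.1 and 141.9 CPM with sgNPM1A, and its value of 0.31 (SE 0.07, adjusted p = 0.00781) was under the fold threshold. With the length and GC offset NDUFS1 stood at 0.40 and was called, as it was without sgNPM1A 1 (0.35) or without sgNeg 1 (0.36).

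Of the 30 accessory subunits 10 were higher, 1 was lower and 19 were not called. The largest rise was that of NDUFB5 (chromosome 3, 179604794 to 179627647), a subunit of the membrane arm, from 60.98 and 66.53 CPM to 94.46 and 93.68 CPM (log2 fold change 0.56, SE 0.07, adjusted p = 0.000219, edgeR). NDUFB9, NDUFB3, NDUFA1, NDUFB1, NDUFA10, NDUFA5, NDUFA3, NDUFA12 and NDUFAB1 were also higher, with values from 0.35 to 0.54. NDUFAB1 is the mitochondrial acyl carrier protein. The read-through gene NDUFC2-KCTD14 had 0 counts in every library and was not tested.

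NDUFA8 was the exception among the nuclear members. It encodes an intermembrane-space subunit of the membrane arm and lies on chromosome 9 from 122132466 to 122159779. Its counts were 2473 and 2665 in the sgNeg libraries and 1874 and 1784 in the sgNPM1A libraries, or 97.29 and 102.9 against 67.23 and 64.25 CPM. The conditions did not overlap, and NDUFA8 fell by 0.61 on the log2 scale (SE 0.07, adjusted p = 9.92e-05, edgeR). No 50-base word of its transcripts recurred in another gene.

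Among 8 NDUFAF assembly factors, which help to build complex I without staying in it, NDUFAF5 was higher (0.39, SE 0.11, adjusted p = 0.023, edgeR) and the others were not called. This is 12.5% of the 8, near the 10.5% of all tested genes, and DESeq2 did not call NDUFAF5 (adjusted p = 0.0668). Of the nuclear members, 84 had a mean of at least 10 CPM and hold all 43 higher genes, with a median of 0.33. Over all 15718 tested genes 8856 had a mean above 10 CPM, and the share called among them is not given here. The 10.5% therefore also covers genes of lower counts. The 7 tested nuclear members under 10 CPM gave no call. Among the latter, NDUFA13, NDUFV2 and NDUFA7 had 10 to 70 counts per library, and 17.1%, 27% and 31.1% of their 50-base words recur in other genes, so their low counts are uncertain.

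The mitochondrial genome is copied as long transcripts of both strands that are cut into single RNAs, so its members share their source. MT-CO1, the catalytic subunit of complex IV, had 323395 and 345610 counts with sgNeg and 340138 and 365860 counts with sgNPM1A, which puts its log2 fold change at -0.04 (SE 0.07, adjusted p = 0.75, edgeR). MT-CO2 stood at -0.06 and MT-CO3 at 0.04. The ATP synthase genes MT-ATP6 and MT-ATP8, which overlap each other in the genome, stood at 0.02 and -0.02. Of the complex I genes MT-ND1 stood at 0.03, MT-ND4 at 0.01, MT-ND2 at -0.02, MT-ND4L at -0.06, MT-ND5 at -0.08, MT-ND3 at -0.13 and MT-ND6 at -0.15. No complex I gene of mitochondrial DNA was past an adjusted p of 0.05 in this fit, and standard errors over the 13 genes were 0.07 to 0.08. With the length and GC offset MT-ND3 stood at -0.24 (adjusted p = 0.0111, edgeR), MT-ND6 at -0.25 (adjusted p = 0.00476) and MT-CYB at -0.32 (adjusted p = 0.00495), and with limma-trend MT-ND6 was called lower at -0.32 (adjusted p = 0.00526).

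MT-CYB, the cytochrome b of complex III (mitochondrial DNA, 14747 to 15887), had the lowest value, with 104882 and 102480 counts with sgNeg and 92915 and 97327 with sgNPM1A. Its log2 fold change was -0.24 (SE 0.07, adjusted p = 0.0262, edgeR), which is under the fold threshold. MT-ND6 is transcribed from the strand opposite to the other 12, and since the strand setting of the counting is not given in the sources used here, its reads cannot be told from those of the transcript that runs through it. The ribosomal RNA MT-RNR2 had 402083 and 425989 counts against 508306 and 505964 (0.18, adjusted p = 0.093, edgeR), and MT-RNR1 stood at 0.05. MT-TP, a transfer RNA gene, had 1547 and 1792 counts against 2206 and 2289. Its value of 0.31 (SE 0.08, adjusted p = 0.0149, edgeR) was under the fold threshold, and no other transfer RNA is given here.

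**Figure D3:**
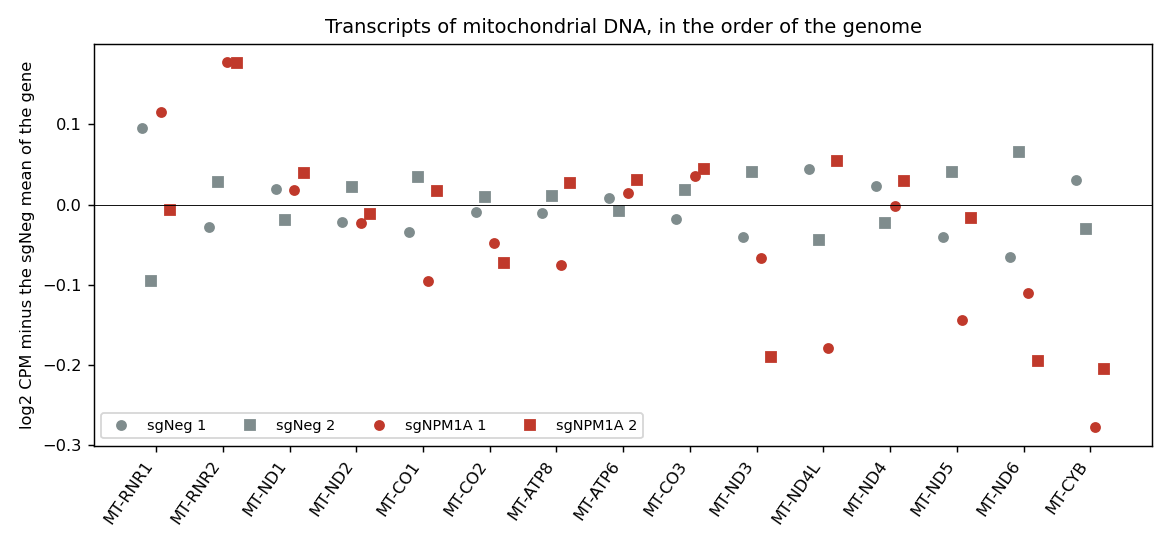
Log2 CPM of the 2 ribosomal RNAs and the 13 protein-coding genes of mitochondrial DNA in each library, minus the mean of the sgNeg libraries, in genome order. Grey circles and squares are sgNeg 1 and 2, red circles and squares sgNPM1A 1 and 2. The lowest sgNPM1A points are those of MT-CYB, whose log2 fold change is -0.24, and MT-RNR2 lies highest, at 0.18.

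Some of these values rest on reads that may also fit nuclear copies. In MT-CO1 49.5% of 50-base words recur elsewhere, mainly in MTCO1P12, in MT-ATP6 46.7%, in MT-ND2 43.6% and in MT-ND4L and MT-ND3 none. The 12 nuclear copies that were tested gave 0 higher and 0 lower calls in edgeR, DESeq2 and limma-trend, also 0 by unadjusted p, with a median of -0.03.

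**Figure D4:**
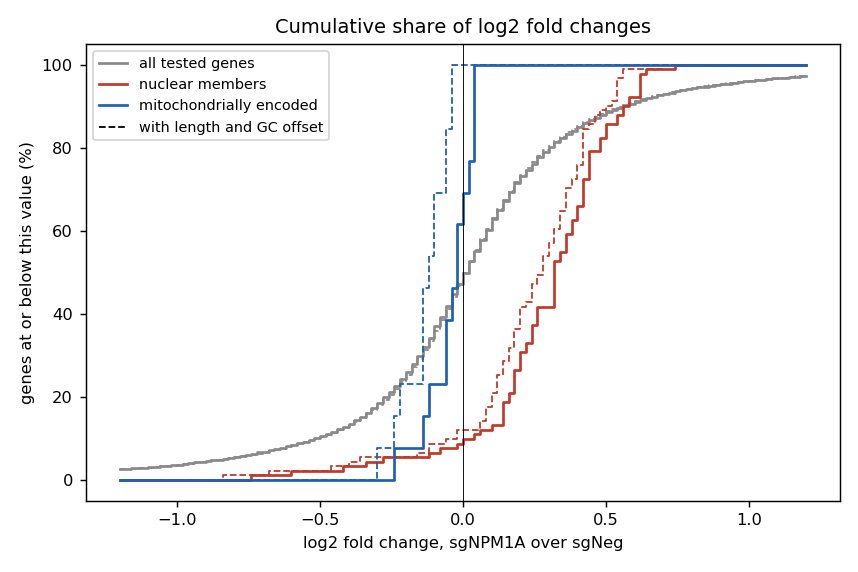
Cumulative share of genes, in percent, against the log2 fold change of sgNPM1A over sgNeg, for all tested genes, nuclear members and mitochondrially encoded members. Dashed lines have the length and GC offset. The nuclear curve lies right of all tested genes, with medians of 0.32 and 0.00, and with the offset the nuclear median is 0.26 and the mitochondrial one -0.12.

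Genes that act on the same pathway were read from lists by role. Of 16 tested regulators of respiratory genes, 0 were called higher and 0 lower in edgeR, with 2 higher and 1 lower past an adjusted p of 0.05 and 3 and 2 by unadjusted p, in both cases without the fold threshold. DESeq2 and limma-trend also called 0. GABPB1, the partner of GABPA, had a value of 0.29 (adjusted p = 0.0179), the nuclear receptor ESRRA 0.25 (adjusted p = 0.0259) and MYC -0.25 (adjusted p = 0.0159). GABPA stood at 0.09 and NRF1 at -0.12. PPARGC1A and ESRRG had 0 counts in every library. Of 35 genes that copy, transcribe or process mitochondrial DNA and RNA, 2 were higher (TOP1MT, a mitochondrial topoisomerase, 0.57, and FASTKD1, an RNA-binding protein, 0.52), and TFAM, which packages mitochondrial DNA, stood at 0.11. The 2 genes are 5.71% of the list, below the 10.5% of all tested genes called higher.

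Other genes of complexes III and IV, outside the symbol rule, gave 6 higher and 0 lower of 34 tested, or 17.6% higher against 10.5% of all tested genes, with a median of 0.17. CYCS, cytochrome c itself, rose from a mean of 104.1 to 147.0 CPM (log2 fold change 0.50, SE 0.10, adjusted p = 0.00301, edgeR), COA6, a copper-delivery factor, rose by 0.55 and CYC1, cytochrome c1, by 0.36. Assembly factors of complexes I, II and V gave 4 higher and 0 lower of 21 (19% higher, against 10.5% of all tested genes, median 0.08). Among them were SDHAF3, which helps to build complex II, at 0.78, DMAC1, of the complex I membrane arm, at 0.63 and COA1 at 0.36. COA1 stands in both of these lists and is counted in each. CYC1 lost its call without sgNPM1A 2 (0.32) or sgNeg 2 (0.30), and COA1 without sgNPM1A 1 (0.33), without sgNeg 1 (0.27) or with the length and GC offset (0.28).

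The tricarboxylic acid cycle list, which feeds electrons to complexes I and II, had 9 of 24 tested genes higher (37.5%) and 1 lower (4.17%), with a median of 0.18. Over all tested genes 10.5% were higher and 10.3% lower. PDHA1, of pyruvate dehydrogenase, rose by 0.60 and SUCLG1 by 0.46, and PDK2, a kinase that turns pyruvate dehydrogenase off, fell by 0.66 from a mean of 5.297 to 3.344 CPM. PDK2 was not called without sgNPM1A 1 (-0.54), without sgNeg 2 (-0.57) or by DESeq2 (adjusted p = 0.0601). A list of inner membrane carriers and uncoupling proteins also held the outer membrane channels VDAC1, VDAC2 and VDAC3. It gave 5 higher and 0 lower of 15 tested (33.3% higher, against 10.5% of all tested genes, median 0.26). UCP2, an uncoupling protein, had 43.0 and 43.51 CPM with sgNeg and 80.11 and 83.41 CPM with sgNPM1A (log2 fold change 0.92, SE 0.07, adjusted p = 5.06e-06, edgeR). MPC2, of the mitochondrial pyruvate carrier, rose by 0.77 and SLC25A12, an aspartate-glutamate carrier, by 0.78.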

How the data were processed

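RNA-Seq of 4 OCI-AML3 libraries was analysed. Reads were mapped by the authors to hg38 (STAR, Samtools), and the deposited values are raw counts per Ensembl gene for each library. The program, strand setting and annotation release of the counting are not given in the sources used here. Libraries held ERCC spike-ins according to the study's methods. They were not used for scaling here, so changes are relative to the total of the tested genes.

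The members and gene lists were chosen with earlier results of these data known. edgeR 4.0.16 in R 4.3.3 was run on all 58037 genes with filterByExpr (minimum count 10, leaving 15718), TMM factors of 0.9853 to 1.015 and the two-sided quasi-likelihood test. The common biological coefficient of variation was 0.0619. Genes with Benjamini-Hochberg adjusted p-values under 0.05 whose change was 1.25-fold or more were called. CPM are TMM-normalized, and a prior count of 2 was added for log2 CPM per library. TPM use the length of the canonical transcript.

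Named genes are the 13 mitochondrially encoded members, the up to 10 called nuclear members with the largest rise and the up to 10 with the largest fall at a mean of at least 5 CPM, core subunits and isoforms whatever their result, and of each list the up to 3 called genes of smallest adjusted p in each direction. Other named genes were chosen after their values were seen, and 2 genes under this rule are not reported here. Symbols, transcript lengths and 50-base words come from GENCODE on GRCh37 by Ensembl identifier, and positions and promoters from RefSeq on GRCh38.p14. Alternatives were DESeq2 1.42.0, limma-trend 3.58.1, other scalings and filters, a length and GC offset (values for 98.2% of tested genes), a replicate block and leaving out each library. The test was tried on simulated data.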

Additional observations from a re-analysis of the deposited data

How the results depend on the processing

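With DESeq2, limma-trend, other scalings, other filters on low counts, protein-coding genes alone, mitochondrial rows left out of the scaling and the replicate block, from 36 (library size only) to 47 nuclear members (protein-coding genes alone) were higher, and 1 was lower. A fold change of at least 2 left 0 higher and 0 lower. Leaving out single libraries gave 30 (without sgNeg 1) to 54 (without sgNeg 2) nuclear members higher, nuclear medians from 0.25 to 0.39 and mitochondrial medians from -0.06 (without sgNPM1A 2) to 0.02 (without sgNPM1A 1). In these fits a lone library is assumed to vary like the other condition. The labels number the libraries of both conditions 1 and 2, and same-numbered libraries deviated from their group means with a correlation of -0.130 across tested genes, or -0.523 among the 8856 genes whose mean exceeded 10 CPM. Nothing in the labels links same-numbered libraries. The replicate block gave 42 nuclear members higher and 1 lower, with medians of 0.32 and -0.04, and moved NPM1 to an adjusted p of 0.156 in edgeR. A crossed block, added after seeing the data, gave 43 and 1. The mitochondrial median was -0.09 with limma-trend and -0.12 with the length and GC offset, with or without the replicate block. With limma-trend 1 mitochondrial member was called lower (MT-ND6), as was 1 without the fold threshold (MT-CYB), and NPM1 stood at -0.42 with limma-trend (adjusted p = 0.00108). Values near 0 changed sign, and the causes were not tested. By library size only MT-ND1 was -0.01, MT-ATP6 -0.02, MT-CO3 -0.00 and MT-ND4 -0.03. With the offset, alone or with the replicate block, they were -0.05, -0.07, -0.05 and -0.06. With limma-trend MT-CO1 was 0.00, MT-CO3 -0.23 (adjusted p = 0.0263) and MT-ND4 -0.09. Leaving out single libraries in turn gave ranges of -0.04 to 0.01 for MT-ND2, -0.09 to 0.02 for MT-CO1, -0.07 to 0.03 for MT-ATP8, -0.18 to 0.06 for MT-ND4L, -0.01 to 0.04 for MT-ND4, -0.17 to 0.52 for COX6B2 and -1.31 to 0.12 for NDUFA4L2. Of 1023 values of 64 named genes under alternatives, 950 kept direction and call, 41 lost the call, 10 gained it and 22 changed sign.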

Other observations

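The genes that shape the inner membrane in which the complexes sit were also read from a list. Of 16 tested genes of cristae and cardiolipin, 3 were higher (18.8%, against 10.5% of all tested genes) and 0 lower (10.3% of all tested genes), with a median log2 fold change of 0.10. CRLS1, which makes cardiolipin, rose by 0.36 (adjusted p = 0.00468 in edgeR), CHCHD3, a part of the complex that forms cristae junctions, by 0.35 (adjusted p = 0.0061), and MICOS10, of the same complex, by 0.57 (adjusted p = 0.0145) from a mean of 4.441 to 6.614 CPM. MICOS10 was not called by DESeq2 (adjusted p = 0.0657), without sgNPM1A 1 (0.56) or without sgNeg 1 (0.50). CRLS1 was not called without sgNPM1A 2 (0.31), and CHCHD3 without sgNPM1A 2 (0.29), without sgNeg 2 (0.27) or with the length and GC offset (0.28).

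Of 13 genes of coenzyme Q synthesis, 2 were higher (15.4%, against 10.5% of all tested genes) and 0 lower, with a median of -0.07. COQ9, a lipid-binding protein of this pathway, rose by 0.59 (adjusted p = 0.000182 in edgeR) and PDSS1, a subunit of the enzyme that makes the side chain, by 0.57 (adjusted p = 0.000703), and both kept the call under every alternative count test, scaling, filter, block and left-out library.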
